A study of Sus scrofa with 15 samples.

Results

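The genes described here write, maintain, remove or protect DNA methylation, and 10 were chosen by name: *DNMT1*, *UHRF1*, *DNMT3A*, *DNMT3B*, *DNMT3L*, *TET2*, *TET3*, *DPPA3*, *ZFP57* and *TRIM28*. A pig Ensembl gene identifier was known for 8 of them, and these were rows among the 22516 genes of the deposited pig gene table. *TET2* and *DPPA3* were not analysed here. Of the 8 genes, 7 had a count in at least 1 library and 6 passed the filter on low counts that left 13220 genes to test. The 2 others are *DNMT3L*, listed at 0 in every library, and *ZFP57*, with at most 3.04 estimated counts in a library. Neither could pass, so counts over the 6 are not counts over all members.

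The study profiled pig oocytes by RNAseq to follow the transition from the germinal vesicle (GV) stage to metaphase II (MII). It also set MII oocytes against oocytes without a visible polar body after culture. GV oocytes came from fresh cumulus oocyte complexes of abattoir sow ovaries and were not cultured. MII oocytes had a first polar body after in vitro maturation, for which the labels give 44 h, and ‘damaged’ oocytes had none after the same culture. Each group had 5 libraries of 15 pooled oocytes without their cumulus cells, so differences between single oocytes were not measured. By the study's methods, 5 biologically separate collections each gave oocytes of every group, so libraries of different groups may share a collection. The main tests do not use this pairing. They measure the spread between collections within a group, technical spread included. No source used here says which collection or animals a library came from.

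Totals of estimated counts ranged from 6.40 to 23.6 M per library. The GV library of lowest total, replicate 3, was left out of the fits and is given beside the results. In the gene table, 7 of 15 columns carried the name of a library other than the one whose total they hold, so every value below comes from the library's own transcript file and its label there. Only 8 libraries (2 GV, 3 MII and 3 ‘damaged’) are named alike in both places, and results on these alone are given beside the main ones. The measured oocyte markers summed to between 11922 and 16222 TPM in the 4 GV libraries, 2762 and 4553 in MII and 3258 and 4774 in ‘damaged’ oocytes. By contrast, the 8 cumulus and granulosa markers measured other than *FST*, which is also at 11.5 to 25.5 TPM here, summed to at most 4.62 TPM in GV, 3.65 in MII and 1.57 in ‘damaged’ libraries. Of the 9 oocyte markers 4 fell in MII and 5 in ‘damaged’ versus GV and none rose, on the TMM scale used below. On that scale 34.2% and 33.4% of all tested genes were called lower. On library sizes all 9 were lower in both comparisons, where 57.5% and 56% of tested genes were. The 4 stroma and leukocyte markers measured summed to 2.76 to 3.02 TPM in GV, 0.572 to 1.29 in MII and 0.965 to 1.26 in ‘damaged’ oocytes. *KRT18* and *CYP17A1* were at 0 in every column, and *LHCGR* and *PTX3* had at most 1.63 and 2.97 counts.

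In mammals, DNMT3A and DNMT3B place new methyl groups on cytosine, and the growing mouse oocyte relies on DNMT3A with its cofactor DNMT3L. UHRF1 recognises hemimethylated DNA after replication and recruits DNMT1, which copies the pattern to the new strand, while TET enzymes oxidise methylcytosine and so begin its removal. DPPA3 shields oocyte DNA from unwanted methylation and conversion, and ZFP57 guides TRIM28 to imprinted regions, where methylation is kept in the early embryo. The mature oocyte does not transcribe, so the messages it holds are what the embryo starts with.

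Levels between genes were compared in TPM, which accounts for transcript length within a library. *DNMT1* (ENSSSCG00000013659), on chromosome 2 from 68981564 to 69040364 of Sscrofa11.1 in RefSeq, was the most abundant member in every library. In GV replicates 1, 2, 4 and 5 it reached 3737, 4503, 4326 and 5963 TPM, and 4477 TPM in GV replicate 3. The MII libraries 1 to 5 held 6120, 7074, 6959, 6629 and 6751 TPM, and the ‘damaged’ libraries 6381, 6930, 5987, 8526 and 8994 TPM. All 10 cultured libraries were thus above the 5 GV libraries. By TPM, *DNMT1* ranked 14 to 26 in the GV libraries fitted, 16 to 18 in MII and 12 to 19 in ‘damaged’ libraries, among 15274 to 17094 genes with a value above 0. It took 1.38 to 1.93% of all counts in GV, 2.39 to 2.72% in MII and 2.24 to 3.23% in ‘damaged’ libraries.

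The other members were far scarcer. In GV oocytes the order by mean TPM was *DNMT3A* at 65.4 ± 30.8, *DNMT3B* at 27.5 ± 9.44, *TRIM28* at 26.7 ± 11.7, *UHRF1* at 11.08 ± 5.51 and *TET3* at 5.36 ± 1.65 (SD, n = 4). Ranges of neighbours in this order overlapped, and *DNMT3B* exceeded *TRIM28* in only 2 of 4 libraries, whereas each other neighbour pair kept its order in 4 of 4. In MII oocytes *DNMT3A* stood at 27.4 ± 4.01, *DNMT3B* at 14.6 ± 2.59, *TRIM28* at 7.61 ± 0.932, *TET3* at 5.16 ± 0.613 and *UHRF1* at 4.72 ± 0.968 TPM (SD, n = 5). Only *TET3* and *UHRF1* overlapped there, with *TET3* above in 4 of 5 libraries. ‘Damaged’ oocytes had 29.8 ± 8.76 for *DNMT3A*, 15.8 ± 2.24 for *DNMT3B*, 9.04 ± 1.16 for *TRIM28*, 5.37 ± 1.47 for *UHRF1* and 4.98 ± 0.850 for *TET3* (SD, n = 5), and *UHRF1* overlapped both *TRIM28* and *TET3*.

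Differences between groups were tested on CPM, counts scaled to the size of the library, with TMM factors, which assume that most genes keep their level. These factors were 1.35 to 1.73 in GV and 0.794 to 0.922 in MII and ‘damaged’ libraries. Over the 13220 genes tested, the median log2(fold change) was -0.17 in MII versus GV and -0.14 in ‘damaged’ versus GV on this scale, but -1.09 and -1.01 on library sizes alone. A gene's direction therefore depends on which scale is taken as level, and both are given for each member. Both scales are relative to the library's other messages, so the amount of a message per oocyte was not measured. Words such as rose and fell refer to these scales. In pools of oocytes, fewer oocytes with a message and less message per oocyte cannot be told apart. A gene was called at an FDR under 0.01, and was a DEG if its absolute log2(fold change) also exceeded 2.

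*DNMT1*, the maintenance methyltransferase, was higher relative to other messages after in vitro maturation. Its CPM was 10238, 9581, 9973 and 11176 in GV replicates 1, 2, 4 and 5 and 9573 in GV replicate 3. In MII replicates 1 to 5 it was 29120, 34292, 29217, 31506 and 31013, and in ‘damaged’ replicates 31082, 32551, 26693, 38251 and 35024. On this scale ‘damaged’ replicate 3, the lowest cultured library, was at 26693 and GV replicate 5, the highest GV library, at 11176. These libraries were closer on library sizes, at 22405 and 19329 CPM, and in TPM, at 5987 and 5963. The log2(fold change) was 1.60 ± 0.115 (SE) in MII versus GV (FDR = 3.08e-10, limma) and 1.67 ± 0.115 in ‘damaged’ versus GV (FDR = 1.92e-10), or 3.03-fold and 3.18-fold. On library sizes the rise was 0.69 (FDR = 1.25e-05) and 0.79 (FDR = 2.25e-06), again with no overlap of the groups. On the 8 libraries named alike it was 1.57 (FDR = 4.29e-06) and 1.68 (FDR = 2.59e-06) with TMM factors. The 2 comparisons share their GV libraries. Past the FDR threshold but short of a DEG, *DNMT1* was among the 28.2% of tested genes called higher in MII than in GV and the 28% called higher in ‘damaged’ oocytes, and its change exceeded that of 90.3% and 91.7% of the genes.

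**Figure D1:**
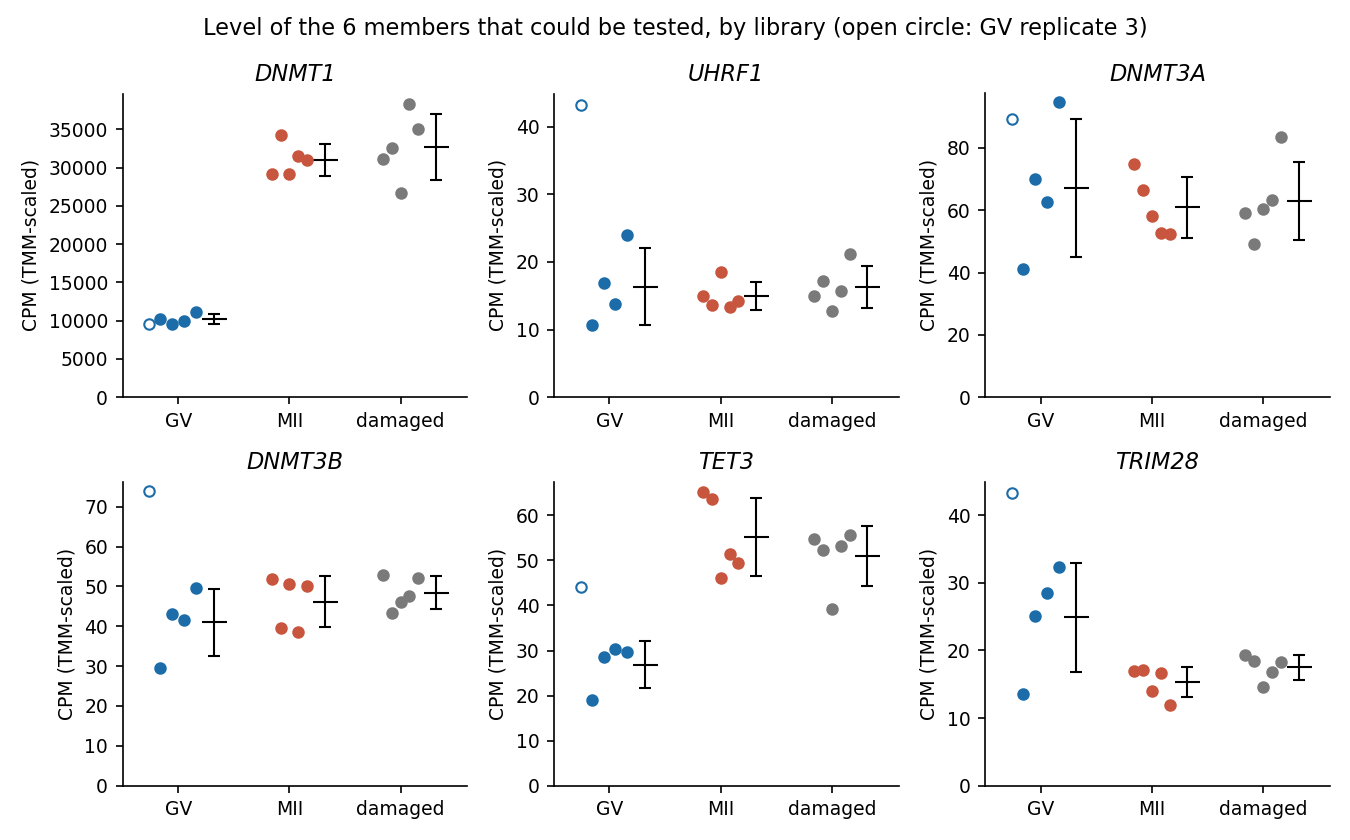
TMM-scaled CPM (vertical axes, from 0) of the 6 members that passed the filter, with 1 point per library and the mean ± SD beside each group (GV n = 4, MII and ‘damaged’ n = 5). The open circle is GV replicate 3, which is not in the mean. *DNMT1* and *TET3* of the cultured groups sit wholly above the 4 GV libraries on this scale, whereas on library sizes *TET3* overlaps. The other 4 genes overlap, and GV replicate 1 is the lowest GV library for each of the 5 scarcer genes.

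*UHRF1* (ENSSSCG00000013517, chromosome 2, 73898061 to 73937727), the partner that brings DNMT1 to newly replicated DNA, did not follow it. GV replicates 1, 2, 4 and 5 held 10.6, 16.8, 13.8 and 24.0 CPM, and GV replicate 3 stood apart with 43.3. MII replicates held 15.0, 13.7, 18.6, 13.3 and 14.2 CPM, and ‘damaged’ replicates 15.0, 17.2, 12.7, 15.7 and 21.1. The groups overlapped throughout. The log2(fold change) was -0.09 in MII versus GV (95% interval -0.53 to 0.35, FDR = 0.727) and 0.04 in ‘damaged’ versus GV (-0.40 to 0.47, FDR = 0.886). They were -0.24 (FDR = 0.492) and -0.15 (FDR = 0.682) on the 8 libraries named alike. Library sizes turned the values of the full set into -0.99 (FDR = 0.00167) and -0.83 (FDR = 0.00607), both past the threshold and both near the median of all genes on that scale.

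The ratio of *UHRF1* to *DNMT1* within a library does not depend on the scale. Each *UHRF1* transcript molecule stood against 665, 393, 497 and 322 of *DNMT1* in GV replicates 1, 2, 4 and 5, and 153 in GV replicate 3. In MII oocytes the number was 1086 to 1731, with a median of 1509, and in ‘damaged’ oocytes 1144 to 1680, with a median of 1430. Relative to *DNMT1*, *UHRF1* was thus 3.18-fold lower in MII than in GV and 3.08-fold lower in ‘damaged’ oocytes, with no overlap (exact permutation p = 0.0159 for each, the smallest that 4 against 5 libraries allow; adjusted p = 0.0476 over the 9 tests). Leaving out any 1 of the 14 libraries moved the adjusted p to between 0.0571 and 0.107, since fewer libraries raise the smallest p, while the difference stayed between -1.86 and -1.46 on the log2 scale. On the 8 libraries named alike it was -1.79 and -1.81 (exact permutation, adjusted p = 0.3 for each). There the smallest unadjusted p is 0.2, so the test could not pass. *DNMT3A*, *DNMT3B* and *TRIM28* also stood lower against *DNMT1* after culture, without overlap. *DNMT1* per *DNMT3A* was 56.6 to 120 in the GV libraries fitted, 187 to 287 in MII and 202 to 319 in ‘damaged’ libraries. These numbers were 153 to 238, 386 to 594 and 399 to 552 for *DNMT3B*. For *TRIM28* they were 150 to 327, 745 to 1128 and 697 to 988. These 3 ratios were not tested.

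*DNMT3A* (ENSSSCG00000029413, chromosome 3, 113501972 to 113609148) and *DNMT3B* (ENSSSCG00000007252, chromosome 17, 36345715 to 36386076) set new methylation. *DNMT3A* had 41.1, 70.1, 62.7 and 94.8 CPM in GV replicates 1, 2, 4 and 5, 89.2 in GV replicate 3, 74.9, 66.4, 58.0, 52.7 and 52.3 in MII and 59.2, 49.0, 60.2, 63.2 and 83.4 in ‘damaged’ replicates. The GV libraries spanned more than the cultured ones and covered them. Its log2(fold change) was -0.10 (95% interval -0.53 to 0.32, FDR = 0.652) in MII versus GV and -0.05 (-0.47 to 0.37, FDR = 0.820) in ‘damaged’ versus GV. Among the libraries named alike it was -0.48 (FDR = 0.0843) and -0.15 (FDR = 0.597). On library sizes it was -1.01 (FDR = 0.000901) and -0.92 (FDR = 0.00200).

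*DNMT3B* had 29.6, 43.2, 41.5 and 49.7 CPM in GV replicates 1, 2, 4 and 5, 74.0 in GV replicate 3, 51.9, 39.7, 50.6, 38.6 and 50.1 in MII and 52.9, 43.2, 46.0, 47.6 and 52.1 in ‘damaged’ replicates. Here too the groups overlapped. Its log2(fold change) was 0.18 (95% interval -0.15 to 0.51, FDR = 0.318) and 0.26 (-0.07 to 0.58, FDR = 0.149), and on library sizes it turned to -0.73 (FDR = 0.00208) and -0.61 (FDR = 0.00778). With only the libraries named alike it was 0.05 (FDR = 0.850) and 0.13 (FDR = 0.619). Set against each other, *DNMT3A* exceeded *DNMT3B* in every library, by 1.73-fold in GV replicate 3, 1.99-fold to 2.73-fold in the other GV libraries, 1.495-fold to 2.40-fold in MII and 1.60-fold to 2.29-fold in ‘damaged’ oocytes. The ratio of *DNMT3B* to *DNMT3A* differed by 0.28 on the log2 scale in MII versus GV (exact permutation p = 0.143, adjusted p = 0.194) and by 0.31 in ‘damaged’ versus GV (exact permutation p = 0.0635, adjusted p = 0.114), short of the threshold of 0.05. These differences were 0.53 (exact permutation, adjusted p = 0.3) and 0.27 (exact permutation, adjusted p = 0.45) on the 8 libraries named alike, too few to reach the threshold.

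*DNMT3L* (ENSSSCG00000028741, chromosome 13, 207119025 to 207141990) encodes a catalytically inactive partner of DNMT3A. It was listed at 0 in all 15 libraries. A count of 0 allows up to 0.127 to 0.469 CPM, depending on the depth of the library, counting 3 reads of the total, and this covers counting error only. Its ratio to *DNMT3A* was therefore not tested.

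*TET3* (ENSSSCG00000008292, chromosome 3, 68918896 to 69020406), the TET enzyme known from the oocyte and zygote, rose on the TMM scale. GV replicates 1, 2, 4 and 5 had 19.0, 28.6, 30.2 and 29.7 CPM and GV replicate 3 had 44.1. MII replicates had 65.1, 63.6, 46.2, 51.4 and 49.4 CPM, and ‘damaged’ replicates 54.8, 52.4, 39.3, 53.2 and 55.6. The cultured libraries were above the 4 GV libraries fitted, while GV replicate 3 lay within the range of ‘damaged’ oocytes. The log2(fold change) was 1.04 ± 0.168 in MII versus GV (FDR = 1.64e-05, limma) and 0.93 ± 0.169 in ‘damaged’ versus GV (FDR = 5.94e-05). On the 8 libraries named alike it was 0.75 (FDR = 0.00816) and 0.74 (FDR = 0.00917). On library sizes the differences were 0.13 (95% interval -0.27 to 0.53, FDR = 0.539) and 0.06 (-0.34 to 0.46, FDR = 0.769), with overlapping groups.

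Against *DNMT1*, *TET3* was lower after culture in ‘damaged’ oocytes. Each *TET3* transcript molecule stood against 1238, 771, 759 and 867 of *DNMT1* in GV replicates 1, 2, 4 and 5, and 499.9 in GV replicate 3. The number was 1029 to 1455 in MII and 1306 to 1656 in ‘damaged’ oocytes. In ‘damaged’ versus GV the ratio was 1.66-fold lower with no overlap (exact permutation p = 0.0159, adjusted p = 0.0476). In MII versus GV it was 1.47-fold lower (exact permutation p = 0.0317, adjusted p = 0.0714), with GV replicate 1 inside the range of MII. That comparison passed at an adjusted p of 0.0357 when all 5 GV libraries were used. Leaving out any 1 library, the ‘damaged’ versus GV difference had an adjusted p of 0.0571 to 0.107. Between ‘damaged’ and MII oocytes the ratio differed by -0.18 on the log2 scale (exact permutation p = 0.151, adjusted p = 0.194).

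**Figure D2:**
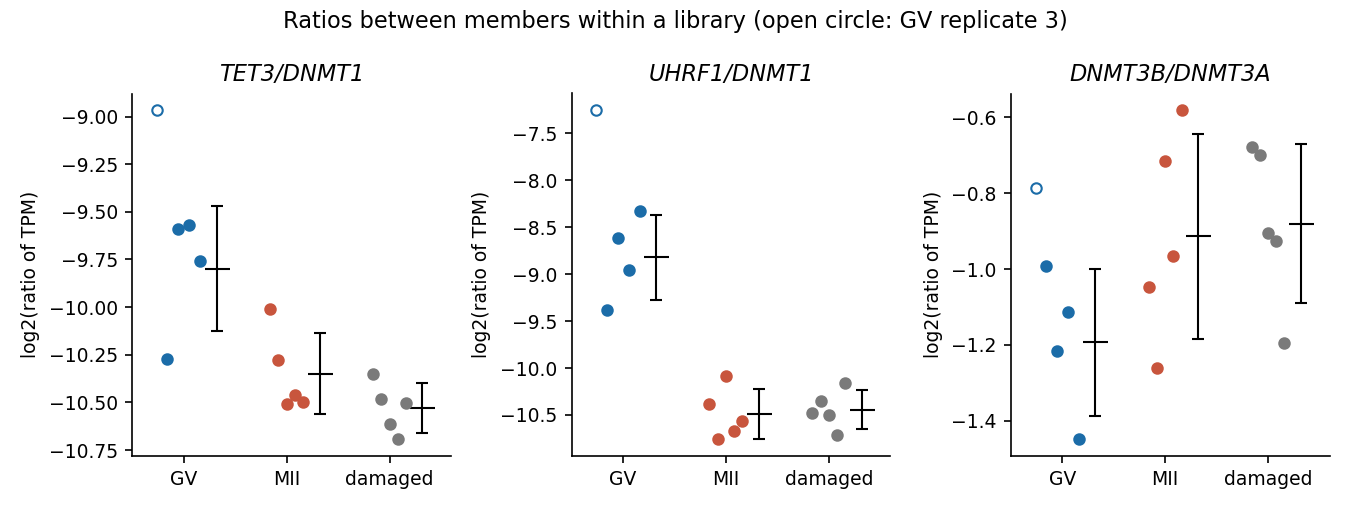
log2 of the ratio of TPM values within each library (vertical axes, not starting at 0), with 1 point per library and the mean ± SD beside each group (GV n = 4, MII and ‘damaged’ n = 5); the open circle is GV replicate 3. *UHRF1*/*DNMT1* falls from a mean of -8.82 in GV to -10.49 in MII and -10.44 in ‘damaged’ oocytes without overlap, while *DNMT3B*/*DNMT3A* overlaps between all groups.

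*TRIM28* (ENSSSCG00000037920, chromosome 6, 63094382 to 63101532) is the corepressor that zinc finger proteins such as ZFP57 bring to imprinted regions. GV replicates 1, 2, 4 and 5 had 13.6, 25.1, 28.4 and 32.4 CPM, and GV replicate 3 had 43.3. MII replicates had 17.0, 17.1, 14.03, 16.6 and 11.9 CPM, and ‘damaged’ replicates 19.3, 18.4, 14.7, 16.8 and 18.2. All GV libraries except replicate 1 were above all cultured ones. The log2(fold change) of -0.65 ± 0.214 in MII versus GV just missed the threshold (FDR = 0.0106), and that of -0.45 ± 0.211 in ‘damaged’ versus GV did not pass (FDR = 0.0619). Without GV replicate 1 both passed, at -0.90 (FDR = 5.77e-05) and -0.70 (FDR = 0.000622), as they did on the 8 libraries named alike (-1.07, FDR = 0.00108, and -0.85, FDR = 0.00523). On library sizes *TRIM28* was lower by -1.55 (FDR = 1.74e-05) and -1.31 (FDR = 9.44e-05) with no overlap, below the median of all genes on that scale.

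*ZFP57* (ENSSSCG00000001247, chromosome 7, 22607420 to 22612064) gave 2.31, 0, 1.01 and 3.04 estimated counts in GV replicates 1, 2, 4 and 5 and 0 in GV replicate 3. It gave 0 in all 5 MII libraries and 0.989, 0, 0, 0.984 and 1.97 in ‘damaged’ replicates. At this depth no difference between groups was detectable, and its ratio to *TRIM28* was not tested.

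Of the 6 genes tested, 2 were called in MII versus GV, both higher, where 62.4% of all tested genes were called, 28.2% as higher and 34.2% as lower. The same 2, *DNMT1* and *TET3*, were called in ‘damaged’ versus GV, where the background was 61.4%, with 28% higher and 33.4% lower. The same pair were the members whose groups did not overlap on the TMM scale, where 27% of genes were higher and 33% lower without overlap in MII versus GV, and 26.6% and 31.8% in ‘damaged’ versus GV. No member was a DEG in either comparison, against 21.6% and 20.5% of all genes. On library sizes 5 of 6 were called in each, *DNMT1* as higher and *UHRF1*, *DNMT3A*, *DNMT3B* and *TRIM28* as lower, where 68.5% and 67.1% of genes were called, 10.9% and 11.2% as higher and 57.5% and 56% as lower. With 6 genes, neither share sets the members apart from other genes.

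**Figure D3:**
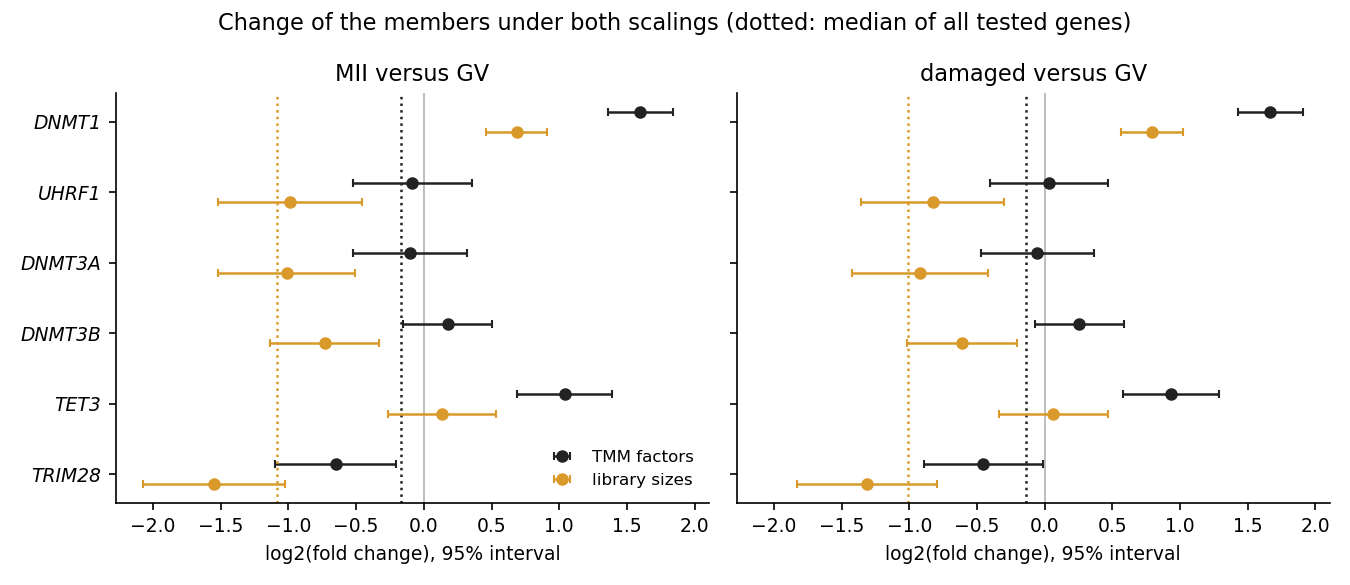
log2(fold change) with its 95% interval (horizontal axis) of each member in MII versus GV and in ‘damaged’ versus GV, under TMM factors (dark) and library sizes (orange); dotted lines mark the median of all 13220 tested genes under each. *DNMT1* is above 0 under both, *TET3* is above 0 only under TMM factors, and *UHRF1*, *DNMT3A* and *DNMT3B* lie near 0 under TMM factors and below 0 under library sizes.

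MII and ‘damaged’ oocytes, which went through the same culture, were not distinguished by any member. With 0 of 13220 genes called in this comparison (0% of the background), 195 genes had an unadjusted p under 0.05 in limma, 263 in edgeR and 252 in DESeq2. With the replicate number as a block in limma there were 353, and the lowest FDR of any gene went from 1.00 to 0.0234, still above the threshold. None of the 6 members was among these genes in any of the 4 fits. The log2(fold change) in ‘damaged’ versus MII was 0.07 for *DNMT1* (95% interval -0.16 to 0.29), 0.12 for *UHRF1* (-0.31 to 0.55) and 0.05 for *DNMT3A* (-0.35 to 0.46). It was 0.08 for *DNMT3B* (-0.23 to 0.39), -0.11 for *TET3* (-0.43 to 0.22) and 0.20 for *TRIM28* (-0.25 to 0.64). Each FDR was 1.00 after rounding. The intervals leave room for differences in either direction, the narrowest for *DNMT1*. This comparison also rests on the labels of the transcript files for MII replicates 1 and 2 and ‘damaged’ replicates 1 and 2, and on the 3 and 3 libraries named alike no gene was called either.

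*DNMT1* has 2 transcripts in the annotation used, of 5367 bases (ENSSSCT00000014923.5) and 4974 bases (ENSSSCT00000038267.3). Nearly all of its expression was assigned to the longer one, at 3722 to 5891 TPM in the 4 GV libraries, 6112 to 7064 in MII and 5981 to 8982 in ‘damaged’ oocytes. The shorter one moved the other way. It had 15.0, 66.1, 29.3 and 72.3 TPM in GV replicates 1, 2, 4 and 5 and 140 in GV replicate 3. MII replicates had 8.05, 10.4, 5.97, 10.2 and 4.87 TPM, and ‘damaged’ replicates 7.37, 9.44, 5.22, 8.96 and 11.7. Every GV library was above every cultured one in TPM. On TMM-scaled CPM the shorter transcript was 2.39-fold and 2.27-fold lower in MII and ‘damaged’ than in GV oocytes, with overlapping groups (exact permutation p = 0.0476 for each, not adjusted).

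As a share of *DNMT1*, the shorter transcript made up 0.402, 1.47, 0.678 and 1.21% in GV replicates 1, 2, 4 and 5, and 3.12% in GV replicate 3. It made up 0.0722 to 0.153% in MII and 0.0871 to 0.136% in ‘damaged’ oocytes. The mean share fell by 0.822 percentage points from 0.940% ± 0.487 (SD, n = 4) in GV to 0.118% ± 0.0368 (SD, n = 5) in MII, and by 0.825 points to 0.115% ± 0.0198 (SD, n = 5) in ‘damaged’ oocytes (exact permutation p = 0.0159 for each, the smallest possible; adjusted p = 0.0238 over the 3 comparisons). ‘Damaged’ and MII oocytes differed by -0.00306 points (exact permutation p = 0.897). The odds of the shorter over the longer transcript were 7.45-fold and 7.41-fold lower after culture, a measure that no scaling between libraries changes. On the 8 libraries named alike the share fell by 0.841 and 0.837 points (exact permutation p = 0.2, the smallest that 2 against 3 libraries allow, not adjusted).

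The filter of the transcript usage test keeps transcripts that hold over 0.05 of their gene's expression, so *DNMT1* was not in it. Without that minimum, the DEXSeq model, fitted with DESeq2, gave an FDR of 7.13e-09 in MII versus GV, 6.19e-11 in ‘damaged’ versus GV and 1 in ‘damaged’ versus MII, and limma's diffSplice gave 6.60e-06 and 3.16e-05 in the first and second. An FDR under 0.01 was given to 27.5% and 27.1% of transcripts in the DEXSeq fits versus GV. With diffSplice it was given to 5809 of 21668 and 5694 of 21734 transcripts. Because a call also asks for a difference in the fraction of over 0.1, the *DNMT1* transcripts were not called, and the change concerns about 1% of the gene's message in GV oocytes. These libraries held 746 to 2974 estimated counts of the shorter transcript in GV, 304 to 851 in MII and 358 to 638 in ‘damaged’ oocytes. These are estimates of Kallisto's model, and how many reads fit only 1 of the 2 transcripts was not measured. The 9 cumulus and granulosa markers measured summed to 15.0 to 21.4 TPM in GV, 16.2 to 24.6 in MII and 20.1 to 27.0 in ‘damaged’ libraries. Most of this was *FST*, the only one that could be tested, which rose by 1.47 (FDR = 3.66e-07) in MII and 1.61 (FDR = 9.03e-08) in ‘damaged’ versus GV, and by 0.56 and 0.74 on library sizes. The other 8 summed to 1.33 to 4.62 TPM in GV, 0.193 to 3.65 in MII and 0.237 to 1.57 in ‘damaged’ libraries, although *CYP11A1* among them had a median of 0 in GV and 0.286 TPM in MII. GV replicate 3 was highest in the transcript and in these 8 markers, at 5.72 TPM, but GV replicate 1, second in the markers, was the lowest GV library for the transcript. The part of these cells in the result was not tested.

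**Figure D4:**
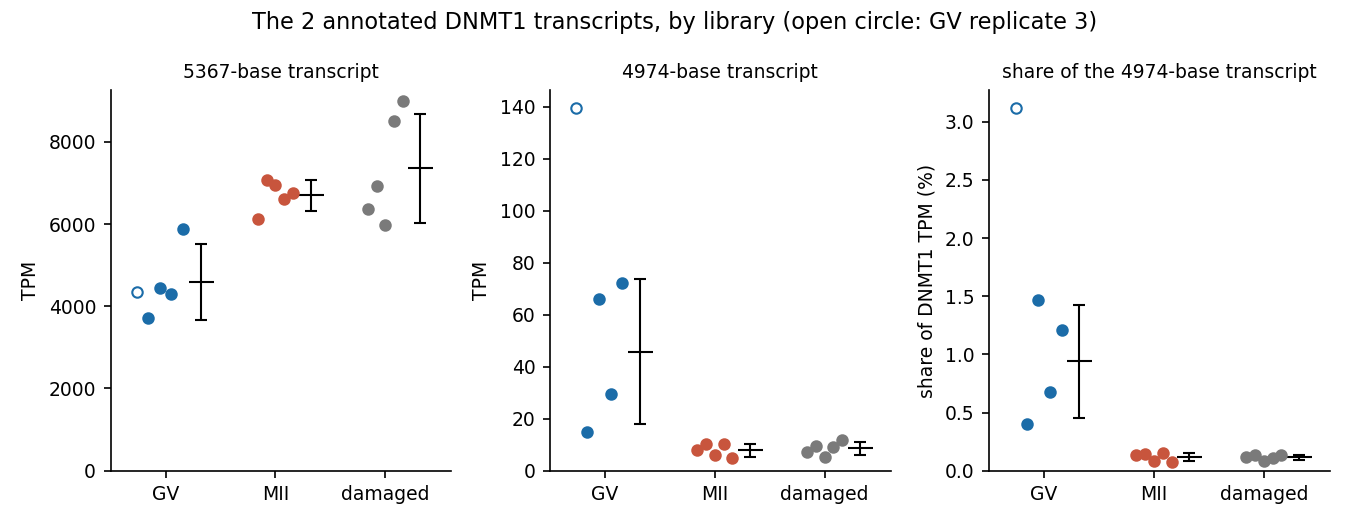
TPM of the longer and of the shorter *DNMT1* transcript and the share of the shorter one in percent (vertical axes, from 0), with 1 point per library and the mean ± SD beside each group (GV n = 4, MII and ‘damaged’ n = 5); the open circle is GV replicate 3. The longer transcript is higher and the shorter one lower in all MII and ‘damaged’ libraries than in any GV library.

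Among the other members with more than 1 transcript, *DNMT3B* showed a shift that depended on the filter. Its main transcript, of 3595 bases (ENSSSCT00000041340.2), held 84.4 to 91.5% of the gene in GV, 68.8 to 80.9% in MII and 64.2 to 85.7% in ‘damaged’ oocytes. A transcript of 4269 bases (ENSSSCT00000049739.2) held 0.000391 to 14.9% in GV, 19.0 to 31.0% in MII and 0.000333 to 35.7% in ‘damaged’ oocytes. MII and GV thus did not overlap for either, while ‘damaged’ oocytes overlapped both. In MII versus GV both had an FDR of 0.0681 and were not called, where 29.9% of the 15596 transcripts tested were. Without the minimum fraction, the main transcript was called (FDR = 1.13e-05, -15.5 points) and the other was not (FDR = 0.101), where 21% of transcripts were called. In ‘damaged’ versus GV neither was called with the minimum (FDR = 0.603 for both, where 30% of transcripts were called) or without it (0.0219 and 0.668).

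The 3 *UHRF1* transcripts in that test had an FDR of 0.361 to 0.955 in MII versus GV and 0.237 to 0.702 in ‘damaged’ versus GV, and their shares spread widely between libraries, from 0.108 to 84.1% in MII for the transcript of 3742 bases. Of *DNMT3A*, 98.95 to 99.9% in GV came from its transcript of 2677 bases, and at least 99.1% after culture. *TET3* has a single transcript in the annotation, and at least 97.0% of *TRIM28* came from its transcript of 2440 bases in every library fitted. No member's transcript was called in ‘damaged’ versus MII, where 0.0174% of 11483 transcripts were, or 0.0113% without the minimum fraction.

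Around the members, 6 lists of other genes of the pathway were examined, of which 45 genes could be tested. In MII versus GV 18 of them rose, 7 fell and 20 did not pass, with a median of 0.16 in log2(fold change), against -0.17 over the tested genes, of which 28.2% were called higher and 34.2% lower. In ‘damaged’ versus GV 15 rose, 7 fell and 23 did not pass, with a median of 0.13 against -0.14 and a background of 28% and 33.4%. On library sizes the counts turned to 6 higher and 22 lower with a median of -0.71, and to 5 higher and 24 lower with a median of -0.74, where 10.9% and 11.2% of tested genes were called higher and 57.5% and 56% lower. Counts of single lists are for MII versus GV, and the background shares of that comparison on each scale apply to each list. In ‘damaged’ versus MII 0 of 45 were called, with 2 at an unadjusted p under 0.05 in limma and in edgeR and 1 in DESeq2.

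Of 8 partners of maintenance methylation, 5 rose, 1 fell and 2 did not pass, with a median of 0.87, beside a background of 28.2% higher and 34.2% lower. On library sizes 3 were higher and 3 lower, with a median of -0.05. *PCNA*, the replication clamp to which DNMT1 binds, was the only DEG, from 4811 ± 1154 to 29087 ± 2826 CPM (SD, n = 4 and 5; log2(fold change) 2.62 ± 0.145, FDR = 1.30e-11). *HELLS*, a chromatin remodeller needed for methylation of repeats, rose by 1.87 (FDR = 2.35e-09) and *CDCA7*, which brings HELLS to chromatin, by 1.52 (FDR = 1.92e-07). *EHMT1*, a histone H3 lysine methyltransferase, fell by 1.03 (FDR = 0.000380). On library sizes *PCNA*, *HELLS* and *CDCA7* remained higher, at 1.71, 0.95 and 0.62. *UHRF2*, the paralog of *UHRF1*, was named after its values were seen: it had 720 to 1159 TPM in the 4 GV libraries fitted, 761 to 1307 in MII and 816 to 1184 in ‘damaged’ oocytes, where *UHRF1* had at most 18.5 (29.3 in GV replicate 3), 6.41 and 7.86. It rose by 1.08 (FDR = 1.19e-05) on the TMM scale and differed by 0.17 (FDR = 0.347) on library sizes.

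Genes of active demethylation and base repair moved in both directions, with 5 of 13 rising, 3 falling and a median of -0.10, beside the same background. On library sizes 2 were higher and 7 lower, with a median of -1.02. The DNA glycosylase *NEIL1* rose by 2.26 (FDR = 2.63e-09), *MBD4*, which removes thymine and uracil from mismatched CpG, by 1.76 (FDR = 1.33e-08) and the uracil glycosylase *UNG* by 0.93 (FDR = 0.000137), the last at 0.03 (FDR = 0.913) on library sizes. The repair scaffold *XRCC1* fell by 2.78 (FDR = 6.40e-07), from 6.75 ± 2.597 to 0.925 ± 0.266 CPM (SD, n = 4 and 5). The glycosylase *SMUG1* fell by 1.37 (FDR = 0.000978) and *PARP1*, a sensor of strand breaks, by 0.79 (FDR = 0.00269). *NEIL1* and *XRCC1* were DEGs. *TDG*, which removes oxidised methylcytosine, was a DEG only in ‘damaged’ versus GV (-2.28, FDR = 0.00265), with at most 0.546 TPM in the 4 GV libraries and a value of -0.88 (FDR = 0.129) in MII versus GV. Its mean of 0.116 CPM in ‘damaged’ oocytes was under the 0.153 to 0.189 CPM that 3 counts are worth there. *TET1*, named after its values were seen, had 0.207 to 0.443 TPM in the 4 GV libraries fitted and 0.344 to 0.559 in MII, against 3.02 to 6.88 and 4.67 to 5.95 for *TET3*.

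Of 6 genes grouped by family as readers of methylated CpG, 2 rose and 1 fell, with a median of -0.01. The background was 28.2% higher and 34.2% lower. On library sizes none was higher and 3 were lower, with a median of -0.90, beside 10.9% and 57.5% of tested genes. Whether each of these proteins binds methylated CpG was not examined. *ZBTB33*, also called Kaiso, rose by 1.00 (FDR = 4.25e-08) and *ZBTB38* by 0.61 (FDR = 0.00500), while *MBD3*, a subunit of the NuRD complex, was a DEG that fell by 2.16 (FDR = 1.04e-05) from 2.37 ± 0.622 to 0.525 ± 0.251 CPM (SD, n = 4 and 5). On library sizes *ZBTB33* and *ZBTB38* were at 0.09 (FDR = 0.455) and -0.30 (FDR = 0.190). Of 6 partners of TRIM28 and binders of imprinted regions, 5 rose and none fell, with a median of 0.65, beside a background of 28.2% higher and 34.2% lower. *SETDB1*, the histone H3 lysine methyltransferase recruited by TRIM28, rose by 1.53 (FDR = 4.23e-08). The heterochromatin proteins *CBX1* and *CBX5* rose by 1.18 (FDR = 1.65e-06) and 0.67 (FDR = 0.000312). On library sizes 1 of the 6 was higher, *SETDB1* at 0.62 (FDR = 0.00442), and 1 lower, with a median of -0.27.

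Of 7 genes for histone marks that guide methylation, 1 rose and 1 fell, with a median of 0.37. The background was 28.2% higher and 34.2% lower. On library sizes none was higher and 3 were lower, with a median of -0.52, beside 10.9% and 57.5% of tested genes. The rising one was *KDM1A*, a histone demethylase (0.77, FDR = 0.00148; -0.14, FDR = 0.524 on library sizes), and the falling one *NSD2*, which methylates histone H3 lysine (-1.29, FDR = 0.00118). For the supply of the methyl donor S-adenosylmethionine, 1 of 5 genes was called, with a median of -0.29, beside the same background. That gene was *AHCY*, which clears the product of methylation, at 10.2 ± 0.974 CPM in GV and 5.36 ± 0.493 in MII (SD, n = 4 and 5; -0.92, FDR = 8.25e-05). On library sizes all 5 were lower, with a median of -1.21, where 57.5% of tested genes were called lower and the median of all genes was -1.09.

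**Figure D5:**
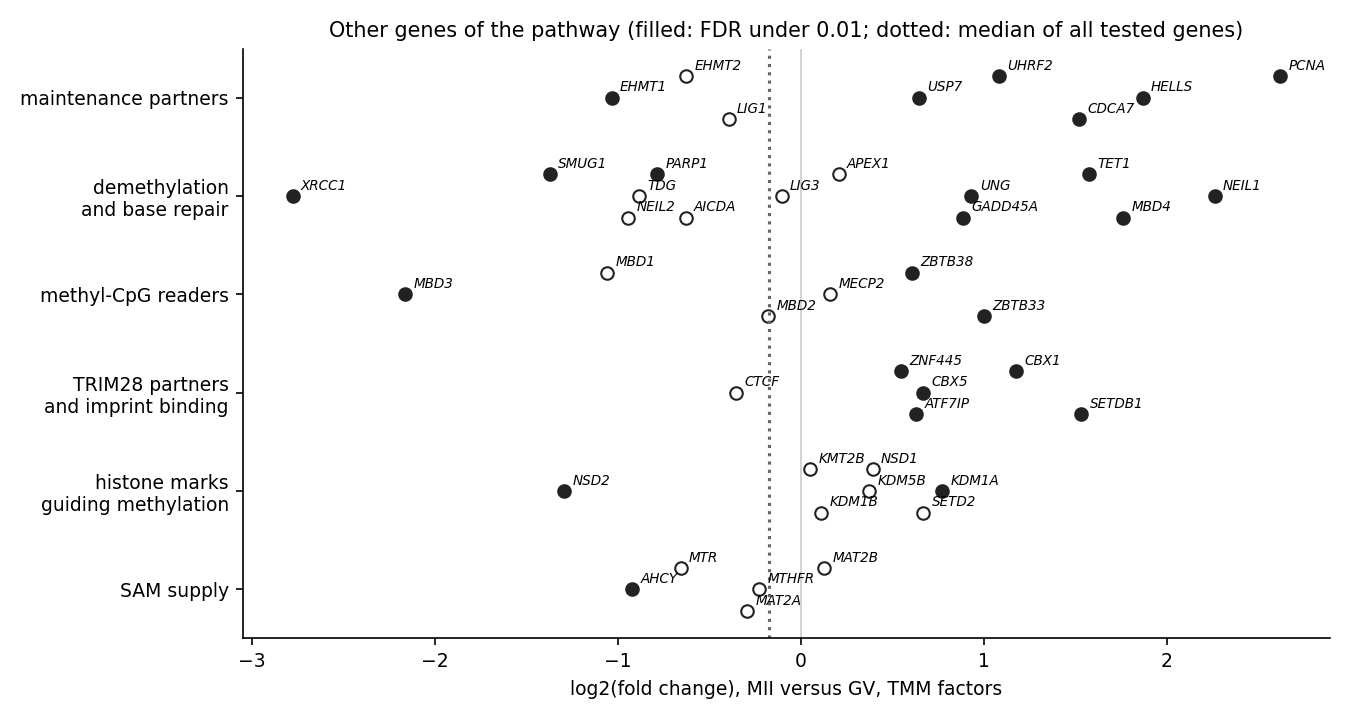
log2(fold change) in MII versus GV with TMM factors (horizontal axis) of the 45 tested genes of 6 pathway lists (rows; the vertical offset within a row only separates labels). Filled circles passed an FDR under 0.01 and the dotted line is the median of all genes, -0.17. Genes for maintenance partners and TRIM28 partners lie mostly to its right on this scale, and on library sizes 22 of the 45 are called lower.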

How the data were processed

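RNA of 15 pooled pig oocytes per library was amplified with the SMART-Seq HT kit and sequenced as single reads. The authors deposited estimated counts and TPM per transcript from kallisto 0.43, and a gene table of estimated counts from the same runs, on Sscrofa11.1 according to the submitters' processing notes. Gene estimated counts were computed here from each library's own deposited TPM values, scaled by transcript length, with transcripts placed in genes by matching them to the 8 gene table columns whose name fits their library; 7 columns were not used. Of 38027 transcripts with a count 37235 could be placed, and members differed by at most 0.0187% from the column of the same total.

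Symbols came from a table pairing 15527 gene identifiers with names. Genes with low counts were removed with filterByExpr (minimum count of 10 and total of 15), and libraries were fitted with limma 3.58.1 (voom) and TMM factors from edgeR 4.0.16 in R 4.3.3, with 4 GV, 5 MII and 5 ‘damaged’ libraries in 1 fit. GV replicate 3, of lowest depth, was left out as in the study. The study's methods name length-scaled TPM for the gene counts, which was followed, but no factor between libraries, so TMM was a choice made here, and library sizes are given beside it. P-values were adjusted by Benjamini-Hochberg over all genes. Transcript usage was fitted with DESeq2 1.42.0 for genes over 1 TPM and fractions over 0.05. Ratios between members, with at least 10 counts, and the *DNMT1* share were compared by two-sided exact permutation tests in scipy 1.17.1; 7 ratios were listed and 3 tested. The scripts were tested on simulated data. Intervals are at 95%, and floors take 3 counts of a library's total. Depth was 6.40 to 23.6 M estimated counts per library.

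The named pathway genes are the DEGs and up to 3 genes in each direction with the smallest FDR among those called in MII versus GV in each of 6 lists. Members, lists and tests were chosen with earlier results of these data known. Alternatives were library sizes, edgeR, DESeq2, other filters, all 5 GV libraries, unscaled counts, leaving out each library, a replicate block and, chosen after seeing the data, only the 8 libraries named alike.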

Additional observations from a re-analysis of the deposited data

Results flagged for a closer look

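*TET3* stood out in 2 of the 30 groups of libraries examined for a single library far from the others, where chance gives about 1 in 20. In GV replicate 1 its level was 19.0 CPM, against 28.6 to 30.2 CPM in the other 3 GV libraries fitted, a gap of 0.853 of the range of that group of 4. In ‘damaged’ replicate 3 it was 39.3 CPM, against 52.4 to 55.6 CPM in the other 4, a gap of 0.803 of the range. Leaving out either library or any other kept *TET3* past the threshold, with a log2(fold change) of 0.90 to 1.11 in MII versus GV and 0.79 to 1.03 in ‘damaged’ versus GV on the TMM scale.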

How the results depend on the processing

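On library sizes the share of called genes that were higher dropped from 45.2% to 15.98% in MII versus GV and from 45.6% to 16.6% in ‘damaged’ versus GV, *DNMT3B* reversed to -0.73 and -0.61, and *UHRF1* in ‘damaged’ versus GV reversed to -0.83. A filter of 10 CPM in at least 4 libraries, which tests fewer genes, gave 5388 and 5313 called genes and 1387 and 1331 DEGs. With diffSplice 1 transcript was called in ‘damaged’ versus MII, against 2. With all 5 GV libraries *TET3*/*DNMT1* in MII versus GV was -0.72 (exact permutation, adjusted p = 0.0357). On the 8 libraries named alike the share of the shorter *DNMT1* transcript differed by -0.841 and -0.837 points, *UHRF1*/*DNMT1* by -1.79 and -1.81 and *TET3*/*DNMT1* in ‘damaged’ versus GV by -0.94. None passed the threshold of 0.05, and none could. The smallest exact permutation p that 2 against 3 libraries allow is 0.2. Leaving out each library gave -0.89 to -0.65 for *TET3*/*DNMT1* in ‘damaged’ versus GV, and -1.86 to -1.51 and -1.81 to -1.46 for *UHRF1*/*DNMT1* in MII and ‘damaged’ versus GV. It gave 1.56 to 1.64 and 1.61 to 1.74 for *DNMT1*, -0.90 to -0.49 and -0.70 to -0.29 for *TRIM28*, and -1.001 to -0.646 and -1.004 to -0.649 points for the transcript share. The exact permutation p of the share was then 0.0286 to 0.0357, the smallest that these numbers of libraries allow. That p was not adjusted, unlike the p-values of the ratios, so they cannot be set side by side.

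*TRIM28* in MII versus GV also passed with edgeR (-0.70, FDR = 0.00487), DESeq2 (-0.64, FDR = 0.00440), all 5 GV libraries (-0.80, FDR = 0.00515) and the 10 CPM filter (-0.98, FDR = 0.000516), and in ‘damaged’ versus GV with the 10 CPM filter (-0.76, FDR = 0.00357). Leaving out GV replicate 1 was the only omission of a library that changed a member's call. A replicate block gave 8352, 8230 and 0 called genes and changed no member's call (*DNMT1* 1.64 and 1.71, *TET3* 1.11 and 1.01). No source used here says that a number marks a collection, so the main fit has no block. Same-number correlations were -0.10 to 0.09 between MII and GV, 0.05 to 0.32 between ‘damaged’ and GV and 0.02 to 0.20 between ‘damaged’ and MII. Of the 15 best matches of an MII or ‘damaged’ library in another group, 9 carried its own number. That is a hint from the data that the numbers may pair the libraries. ‘Damaged’ libraries enter in both of their comparisons, and GV replicate 3 was not available as a match. *ZFP57* and *DNMT3L* did not pass the filter on low counts and have no comparison, and why *DNMT3L* had no counts was not tested.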
